A study of Homo sapiens with 6 samples.

Results

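NANOG, NANOGP1, POU5F1, LIN28A, LIN28B, NES, PROM1, CD44, KLF4 and MYC, a set of pluripotency factors and cancer stem cell markers, were read by their gene names from the count table of an adrenocortical carcinoma experiment. All 10 were among the 57341 named genes of the table, and each had a count in at least 1 library. RNA, polyA RNA by the labels, was sequenced from 3 libraries labelled H295R and 3 labelled H295R-PM-Ptc+. H295R is an established human adrenocortical carcinoma cell line, and here stands for the unsorted parental culture. H295R-PM-Ptc+ cells were sorted by flow cytometry from that line with an antibody to the Hedgehog receptor Patched (Ptch1) at the plasma membrane, and were then amplified, so that they are 1 sorted and expanded population of the same line. Both were grown untreated in the same serum-supplemented medium, and no label says that replicates came from separate cultures, so the p-values measure the spread between these libraries, which may be technical.

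The group names need care before any direction is read. PTCH1, the gene of the receptor used for the sort, was counted 441, 559 and 579 times in the libraries labelled H295R and 248, 326 and 319 times in those labelled H295R-PM-Ptc+. Its mean level was 21.3 ± 2.56 CPM (counts scaled to library size, SD, n = 3) against 12.2 ± 2.19, a log2 fold change of -0.81 (SE 0.147, adjusted p = 0.0207 by edgeR's quasi-likelihood test), so that it was lower under the label of the cells sorted for its protein. This call was lost without the library labelled H295R replicate 2 (adjusted p = 0.0799) or 3 (0.0921), or labelled H295R-PM-Ptc+ replicate 2 (0.0618). The study's own normalized values carry the opposite group names on the same libraries. Which names belong to which cells cannot be settled from counts, so every group below is a label, and every direction turns around if the deposited labels are exchanged.

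Pluripotency factors are transcription factors and RNA-binding proteins that hold embryonic stem cells in an undifferentiated state. NANOG and POU5F1 (also called OCT4) bind together at the genes of that state, KLF4 and MYC can help to reprogram differentiated cells, and the LIN28 proteins block maturation of let-7 microRNAs, which silence growth genes such as HMGA2. Nestin (NES), prominin-1 (PROM1, the CD133 antigen) and the hyaluronan receptor CD44 are not factors of that network but proteins used to mark stem-like cells in tumours.

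NANOGP1 needs its sequence to be read correctly, because it is a duplicate of NANOG and short reads can fit both. In GRCh38, the build of the files, NANOG lies on chromosome 12 at 7787794 to 7799141 and NANOGP1 at 7892576 to 7900140, both on the plus strand, and the GENCODE v44 annotation calls NANOGP1 a transcribed unprocessed pseudogene. The coding exons of NANOG and the matching stretches of NANOGP1 were aligned without gaps over 912 of the 915 coding bases, leaving out the first bases of the last coding exon, with 22 mismatches, an identity of 97.59%. The mismatches were densest in the first coding exon, with 13 in 151 bases, and the second held 6 in 263. Both pairs are shown 5′ to 3′ from the plus strand, with the bases that differ between them in capitals. They lie at chr12:7789615-7789765 and chr12:7892576-7892726 for exon 1, and at chr12:7792950-7793212 and chr12:7895477-7895739 for exon 2.
NANOG coding exon 1: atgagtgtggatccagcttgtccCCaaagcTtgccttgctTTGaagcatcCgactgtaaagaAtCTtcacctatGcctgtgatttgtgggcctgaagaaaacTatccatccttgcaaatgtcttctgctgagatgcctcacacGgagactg
NANOGP1 stretch matching exon 1: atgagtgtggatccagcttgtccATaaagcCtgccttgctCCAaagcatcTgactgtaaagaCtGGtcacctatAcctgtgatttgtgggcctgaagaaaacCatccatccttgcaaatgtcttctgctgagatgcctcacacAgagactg
NANOG coding exon 2: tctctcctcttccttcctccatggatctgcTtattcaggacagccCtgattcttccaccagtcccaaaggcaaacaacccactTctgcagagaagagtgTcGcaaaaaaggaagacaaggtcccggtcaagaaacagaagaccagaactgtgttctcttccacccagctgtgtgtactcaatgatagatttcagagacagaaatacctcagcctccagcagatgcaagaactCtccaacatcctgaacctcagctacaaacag
NANOGP1 stretch matching exon 2: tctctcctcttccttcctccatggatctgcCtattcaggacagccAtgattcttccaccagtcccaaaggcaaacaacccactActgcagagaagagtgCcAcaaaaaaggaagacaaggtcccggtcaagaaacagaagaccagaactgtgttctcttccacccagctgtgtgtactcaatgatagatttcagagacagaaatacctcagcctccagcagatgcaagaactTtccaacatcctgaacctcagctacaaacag
Read in the frame of NANOG, the NANOGP1 stretch met a stop (TAA) at codon 9, where NANOG read on to TGA at codon 306. Of the 1612 different 75-base words in the exons of NANOGP1, the length of 1 read, 333 (20.66%) were also found in transcripts of NANOG or its other copies, 306 of them in NANOG itself. A read from such a stretch can, taken alone, fit either gene. The other read of its pair may lie outside the stretch, which was not examined. GENCODE v44 also lays a long noncoding gene over the NANOGP1 locus on the same strand, and with it 1608 of the words (99.75%) are found in another gene record of that annotation. NES, the other called gene, shared 0 of its 5262 words with any other gene record.

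The libraries held 23264403 to 25813247 counted fragments. The first principal component (44.6%) separated the group labels and the second (32.3%) set replicate 1 of both groups apart. The chi-square per gene between replicates of a group lay between 5.97 and 28.3, where counting error alone would give about 1. Replicates thus differed by more than counting error, and whether the source is technical cannot be told from this. Adrenocortical markers such as NR5A1 and STAR were expressed in every library, with a summed level of 882 to 1163 CPM for the 10 markers under the H295R label and 961 to 1219 under the other, although CYP11B1, the last enzyme of cortisol synthesis, was at 0 to 3 counts. Of the 9 tested, 1 was called (11.1%), CYP21A2, higher under the H295R-PM-Ptc+ label (log2 fold change 0.88, adjusted p = 0.00670 by edgeR). With the replicate number as a block in the fit 3 were called, against 22.5% of all tested genes. These were CYP21A2, STAR (0.41, adjusted p = 0.346 by edgeR, 3.91e-06 with the block) and CYP11A1 (-0.25, 0.391, and 0.00100 with the block). Of 6 germ cell and embryonic stem cell markers, 0 passed the filter on low counts and their sum lay between 0.0809 and 0.391 CPM over all 6 libraries. Of 5 fibroblast markers 1 passed (COL1A1), of 3 endothelial and 4 leukocyte markers 0 passed, and LUM, PTPRC and CD68 were at 0 in every library. Among 16710 tested genes, 624 (3.73%) reached an adjusted p below 0.05, 404 (2.42%) with the higher level under the H295R-PM-Ptc+ label and 220 (1.32%) with the lower.

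Set against exon length, the 10 genes covered a wide range of levels (plot of level per exon length). MYC stood highest, at 34.6 CPM per kilobase of exon as the mean of 6 libraries, above 95.3% of the 30927 genes with a count and an exon length. NANOGP1 followed at 3.86, with KLF4 at 1.57, NES at 1.21 and CD44 at 0.922, which is above 57.3% (CD44) to 71.6% (NANOGP1) of these genes. No library of MYC overlapped one of NANOGP1, and none of NANOGP1 one of KLF4. The order of KLF4, NES and CD44 depended on the label, since NES was at 0.650 ± 0.181 (SD, n = 3) under the H295R label and at 1.77 ± 0.185 under the other, against 1.48 ± 0.0957 and 1.66 ± 0.0831 for KLF4 and 0.742 ± 0.187 and 1.10 ± 0.192 for CD44. NES and CD44 lay within their spread of each other under the H295R label, and NES and KLF4 under the other. The other 5 genes lay far below, with NANOG at 0.0598, LIN28B at 0.0453, LIN28A at 0.0202, POU5F1 at 0.0146 and PROM1 at 0.00907 CPM per kilobase, and the libraries of these 5 overlapped between neighbours in the order. The pseudogene NANOGP1 was thus counted far above the gene it was copied from in every library.

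**Figure D1:**
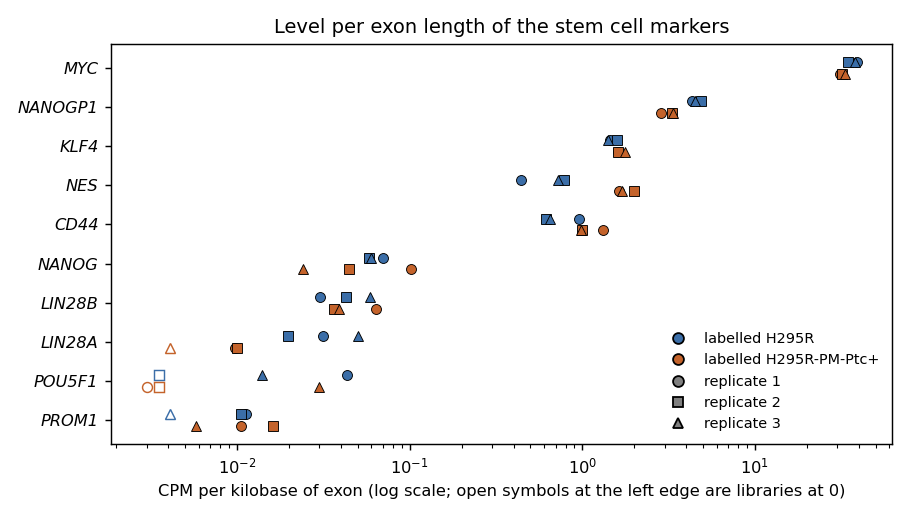
Level of each gene in CPM per kilobase of exon on a log axis, with 1 symbol per library, colour for the group label and shape for the replicate number. MYC lies highest near 34.6 and PROM1 lowest near 0.00907 as means of 6 libraries, and open symbols at the left edge are libraries with 0 counts.

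Of the 10 genes, 5 passed the filter on low counts and were tested over all genes (NES, CD44, KLF4, MYC and NANOGP1), and the other 5 were too low. NES was called higher and NANOGP1 lower under the H295R-PM-Ptc+ label, 2 calls against a background of 3.73% of all tested genes, and 4 of the 5 had an unadjusted p under 0.05, against 17.3%. When the replicate number was a block 4 were called, against 22.5% of all tested genes, NES and CD44 higher (12.1%) and MYC and NANOGP1 lower (10.4%). With no filter on low counts 3 of the 10 were called (NES, CD44 and NANOGP1), against 3.59%. In each of the 5 the 3 libraries of one label lay above the 3 of the other, which was also true of 23.5% of all tested genes, and with LIN28A this made 6 of the 10, against 16.2% of all genes with a count. An exact permutation test over the libraries gave p = 0.1 for each of them, two-sided, the smallest value that 3 against 3 libraries allow. The median log2 fold change of the 5 tested genes was 0.16, against 0.00094 over all tested genes. The 10 genes were chosen with earlier results of these data known, so these shares describe these genes only.

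**Figure D2:**
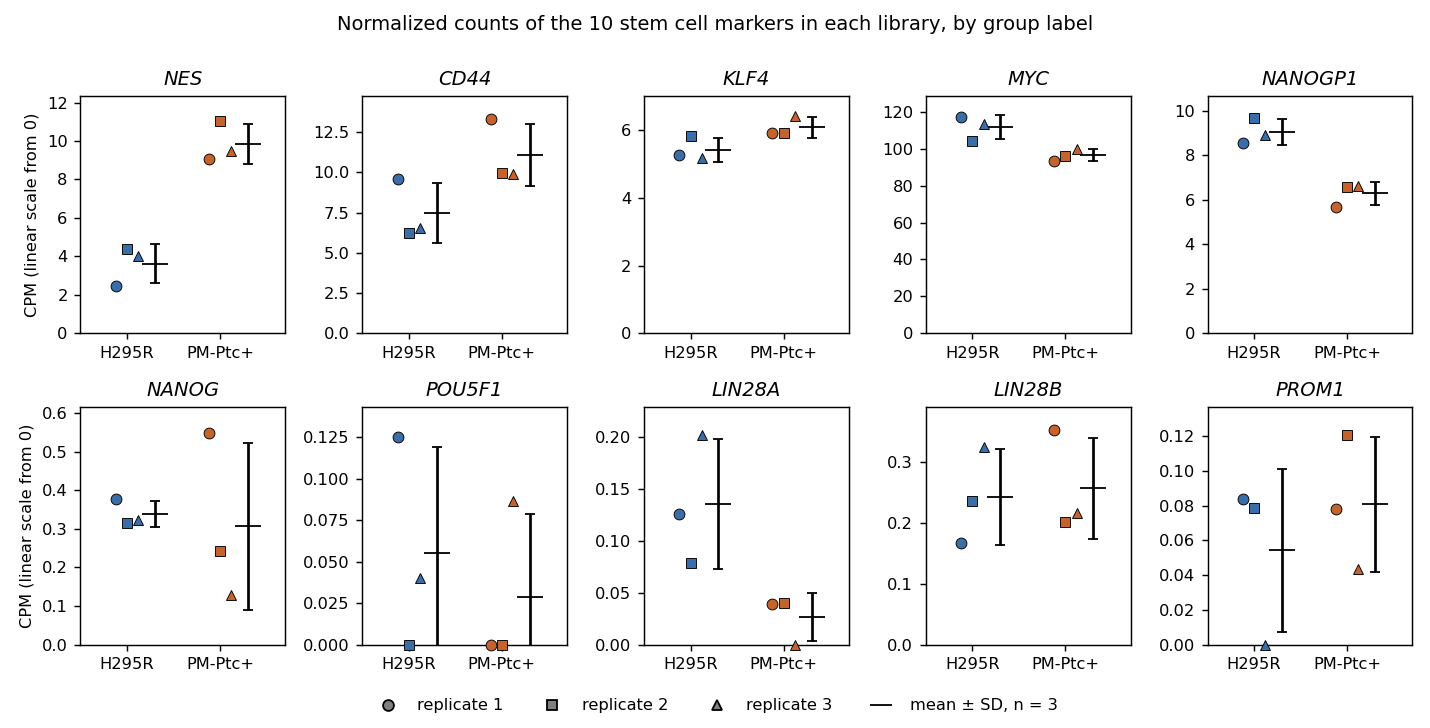
Normalized counts (CPM, linear axes from 0, a separate scale per gene) of the 10 genes in each library, with shape for the replicate number and the bar for mean ± SD of 3 libraries. The groups lie apart in NES, CD44, KLF4, MYC and NANOGP1, and in LIN28A at 0 to 5 counts, and overlap in the other 4.

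NES encodes nestin, an intermediate filament protein of neural and other progenitor cells. It lies on chromosome 1 at 156668763 to 156677397 on the minus strand, and was counted 59, 111 and 99 times in the libraries labelled H295R and 232, 274 and 219 times in those labelled H295R-PM-Ptc+. The lowest library of the second label held more counts than any library of the first. In normalized counts this was 3.61 ± 1.01 against 9.85 ± 1.03 CPM (SD, n = 3), a log2 fold change of 1.44 (SE 0.198) or 2.72-fold, with an adjusted p of 0.00514 by edgeR. In bulk RNA such as this, more cells with a transcript and more of it per cell cannot be told apart. Only 179 of the tested genes (1.07%) had a fold change of that size or larger in either direction. NES stayed called whichever library was left out, with log2 fold changes of 1.23 to 1.60 and adjusted p-values up to 0.0258, and all 3 same-numbered pairs had the same direction.

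The genes around NES were read for the same libraries, after the values of NES were known. The nearest tested gene downstream was RP11-284F21.10, a noncoding gene on the same strand whose start lies 32.5 kb from that of NES. It was counted 1, 2 and 8 times under the H295R label and 42, 45 and 45 times under the other, with a log2 fold change of 3.55 (SE 0.436, adjusted p = 0.00286 by edgeR). It passed the filter on low counts only through the libraries of the second label. Its neighbours on that strand, RP11-284F21.7 at 15.97 kb and RP11-284F21.9 at 36.4 kb, did not pass the filter. With no filter edgeR gave adjusted p-values of 3.75e-08 for RP11-284F21.10, 2.02e-04 for RP11-284F21.7 and 0.00104 for RP11-284F21.9. That fit called 3.59% of all genes with a count. RP11-284F21.7 and RP11-284F21.9 were named after their values were seen. All 3 were hardly counted outside the second label, so their p-values are no independent support for a difference around NES. RP11-284F21.7 held 0, 1 and 1 counts against 18, 16 and 7, and RP11-284F21.9 held 1, 0 and 2 against 17, 10 and 10. In all 3 noncoding genes every library labelled H295R-PM-Ptc+ lay above every library labelled H295R. Groups without overlap, in either direction, were found in 23.5% of tested genes and in 7.51% of the genes with a count that did not pass the filter. Multiply mapped reads were counted, and sequence shared between the 3 was not examined, so they may not be separate observations. BCAN, a proteoglycan gene that lies there on the opposite strand, was at 0 in every library.

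On the other side of NES, CRABP2, a cytoplasmic retinoic acid binding protein whose start lies at -28.4 kb (upstream), was counted 11, 18 and 17 times against 45, 21 and 32 times. The log2 fold change of 1.09 (SE 0.327) was not called over all genes (adjusted p = 0.113 by edgeR), and was called with the replicate number as a block (adjusted p = 0.0180). Within 100 kb on each side lay 19 other genes, of which 10 were tested, with 9 log2 fold changes above 0 and 1 below, a median of 0.17. The 1 call, against 3.73% of all tested genes, was RP11-284F21.10, which had passed the filter through 1 label only. With the block 8 of the 10, it among them, were called, against 22.5% of all tested genes. The more abundant genes of the window had log2 fold changes from -0.05 (MRPL24, adjusted p = 0.830 by edgeR, 0.566 with the block) to 0.30 (IQGAP3, 0.150, and 2.46e-04 with the block). Between them lay HDGF at 0.05, ISG20L2 and GPATCH4 at 0.14, PRCC at 0.17, APOA1BP at 0.18 and RRNAD1 at 0.26, of which HDGF was not called with the block and the other 5 were (adjusted p 0.00768 to 0.0432).

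**Figure D3:**
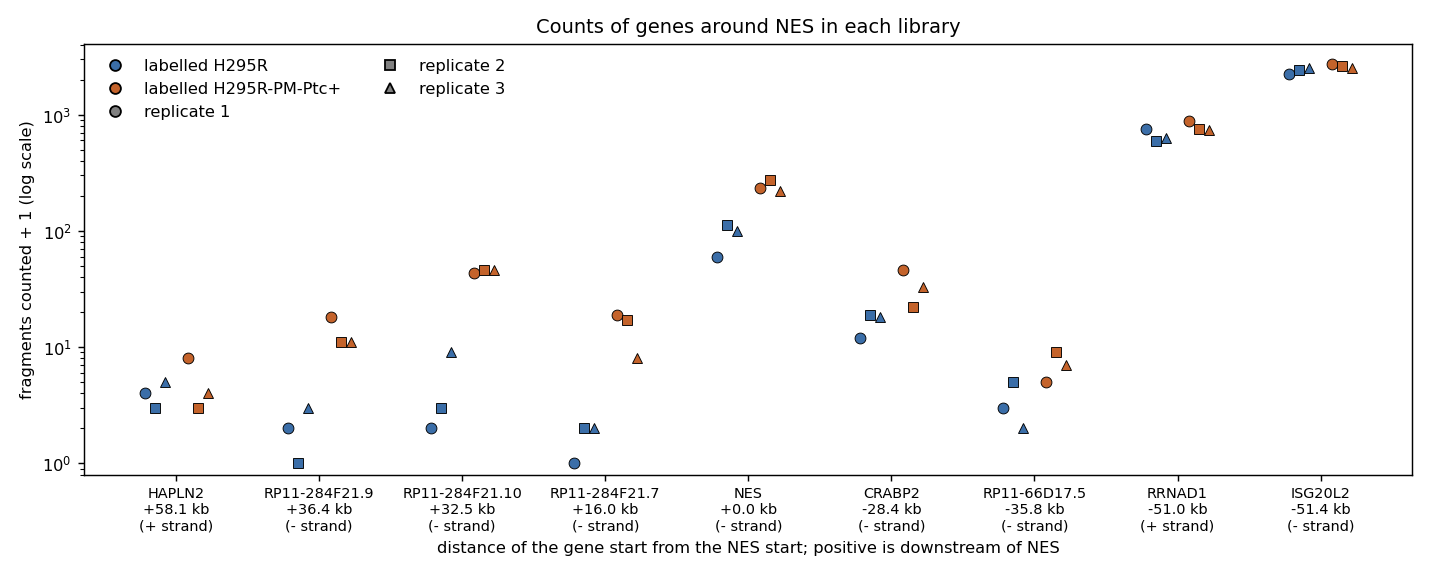
Fragments counted plus 1 on a log axis for NES and the genes within 60 kb of its start that held at least 10 counts in all 6 libraries together, ordered along the chromosome with the distance of their start and their strand. NES and the 3 downstream noncoding genes of the minus strand are higher in all 3 libraries labelled H295R-PM-Ptc+, while the libraries of RRNAD1 overlap between the labels.

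CD44 and PROM1 are the surface markers of the set. CD44 is on chromosome 11 at 35138870 to 35232402 on the plus strand, and was counted 230, 158 and 162 times against 340, 248 and 230 times. The highest library of the H295R label and the lowest of the other held the same raw count, and they separated only after scaling, at 9.63 and 9.94 CPM. The means were 7.47 ± 1.88 and 11.1 ± 1.93 CPM (SD, n = 3), and the log2 fold change was 0.57 (SE 0.191, adjusted p = 0.157 by edgeR), which is no call. Replicate 1 was the highest library of both labels. With the replicate number as a block CD44 was called (adjusted p = 4.81e-04), and also without H295R replicate 1 (log2 fold change 0.79, adjusted p = 0.0206), without replicate 1 of both groups (0.64, adjusted p = 0.00549), and with no filter on low counts (adjusted p = 0.0273).

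PROM1, on chromosome 4 at 15963076 to 16084378 on the minus strand, was counted 2, 2 and 0 times against 2, 3 and 1 times. The groups overlapped, with a sum of 4 counts (exact Poisson 95% interval 1.09 to 10.2) against 6 (2.20 to 13.1), and an exact permutation test gave p = 0.6. These intervals and those below cover counting error only. At this depth no difference was detectable in PROM1, and a library at 0 allows up to 3 counts, which is 0.117 to 0.130 CPM over the 6 libraries. Part of its exons is shared with FGFBP2 on the same strand.

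Of the genes that make, bind or cleave hyaluronan, bind CD44 or splice it, 16 were listed and 12 tested, and 1 was called, 8.33% against 3.73% of all genes. SPP1, which encodes osteopontin, a secreted ligand of CD44, was at 15.7, 19.4 and 17.6 CPM in the libraries labelled H295R and at 43.6, 43.4 and 41.3 CPM in the others. The 2 sets of 3 libraries were far apart, with a log2 fold change of 1.28 (SE 0.0931, adjusted p = 3.93e-04 by edgeR), and the call held without any 1 library. The median over the 12 was 0.03. With the block 5 of them were called, against 22.5% of all tested genes, SPP1 and MSN higher and HAS2, EZR and RDX lower. MSN, EZR and RDX encode moesin, ezrin and radixin, which link CD44 to actin, and their log2 fold changes without the block were 0.19, -0.23 and -0.19. ESRP1, which directs the splicing of CD44 into epithelial forms, was at 0.0271 and 0.0961 CPM and was not tested. The counts are per gene, so that the forms of CD44 were not told apart.

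NANOGP1 was counted 204, 246 and 220 times in the libraries labelled H295R and 145, 163 and 153 times in those labelled H295R-PM-Ptc+. Every library of the first label lay above every library of the second, at 9.04 ± 0.586 against 6.28 ± 0.526 CPM (SD, n = 3). The log2 fold change was -0.53 (SE 0.120, adjusted p = 0.0486 by edgeR), or 1.44-fold higher under the H295R label. This call was close to the threshold. It held in 1 of 6 fits that left out a library, with adjusted p-values from 0.0349 without H295R replicate 1 to 0.156 without H295R replicate 2 (0.141 without H295R replicate 3, and 0.117, 0.137 and 0.133 without H295R-PM-Ptc+ replicates 1, 2 and 3), and was lost when at least 10 counts were asked of every library (0.0554). With the block the adjusted p was 0.00171. NANOGP1 is among the genes the study itself listed from these libraries, so its difference is not independent evidence of a direction.

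The nearest tested genes on either side of NANOGP1 encode glucose transporters of the GLUT family. SLC2A14 starts just upstream on the opposite strand, and its log2 fold change was -0.27 (SE 0.106, adjusted p = 0.240 by edgeR, 0.0239 with the block). SLC2A3, on the other side, did not differ beyond its error (log2 fold change 0.0049, SE 0.120, adjusted p = 0.991).

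NANOG itself was counted 9, 8 and 8 times under the H295R label and 14, 6 and 3 times under the other. The second group held both the highest and the lowest library, at 0.338 ± 0.0334 against 0.306 ± 0.216 CPM (SD, n = 3), and an exact permutation test gave p = 0.8. The summed counts were 25 (exact Poisson 95% interval 16.2 to 36.9) and 23 (14.6 to 34.5). With no filter on low counts edgeR gave a log2 fold change of -0.12 (adjusted p = 0.946). Of the 4973 words of 75 bases in NANOG exons 982 (19.75%) also occur in its copies, where a read taken alone cannot be told from one of a copy. NANOGP8, a processed copy on another chromosome, was counted 10, 4 and 10 times against 7, 6 and 10 times. The genes that lie next to NANOG in the same cluster and are active in pluripotent cells, DPPA3, GDF3 and NANOGNB, had 0 counts in every library.

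POU5F1, on chromosome 6 at 31164337 to 31180731 on the minus strand, was counted 3, 0 and 1 times against 0, 0 and 2 times. Its groups overlapped (exact permutation p = 0.7), with sums of 4 (exact Poisson 95% interval 1.09 to 10.2) and 2 (0.242 to 7.22). Its exons overlap those of TCF19 on the opposite strand, which held 2977 to 3442 counts, so the low count of POU5F1 rests on the separation of strands. POU5F1B, a copy on chromosome 8, was counted more often than POU5F1, 18, 17 and 16 times against 13, 4 and 15 times, and its log2 fold change of -0.66 (SE 0.408) was not called (adjusted p = 0.472 by edgeR). Of 21 other genes whose symbols begin with NANOG or POU5F1 (copies of the pair, and NANOGNB, a neighbour of NANOG, with its own copies), 14 had 0 counts in every library.

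Most other genes of the pluripotency network were also too low to test. Of 24 listed, 3 passed the filter and 4 (DPPA3, GDF3, PRDM14 and FGF4) had 0 counts in every library. SOX2, the partner of POU5F1, was counted 3, 0 and 1 times against 0 in all 3 libraries. TRIM28, a corepressor that is also expressed in most differentiated cells, was the 1 call among the 3 (33.3%, against 3.73% of all genes). Its level was 264, 300.0 and 325 CPM under the H295R label and 392, 424 and 437 under the other, without overlap, and its log2 fold change was 0.49 (SE 0.0943, adjusted p = 0.0249 by edgeR). The call was lost in 4 of 6 fits without a library, without H295R replicate 2 (adjusted p = 0.0885) or 3 (0.0530) and without H295R-PM-Ptc+ replicate 2 (0.1004) or 3 (0.125). Of the 10 tested genes nearest to TRIM28 on chromosome 19, 9 also had log2 fold changes above 0. Their median was 0.41, against 0.00094 over all tested genes, and 2 of the 10 were called, against 3.73%. Whether the stretch differed as a whole was not tested. TFCP2L1, a factor of the naive pluripotent state, differed by 1.13 on the log2 scale (adjusted p = 0.0516 by edgeR, 6.75e-04 with the block) at 1.17 and 2.55 CPM, and was named after its value was seen. The third tested gene, DNMT3B, a DNA methyltransferase, differed by 0.11 on the log2 scale (adjusted p = 0.774).

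LIN28A and LIN28B, the RNA-binding proteins that hold back let-7, were both at low counts. LIN28A, on chromosome 1 at 26410778 to 26429722 on the plus strand, was counted 3, 2 and 5 times under the H295R label and 1, 1 and 0 times under the other. The libraries did not overlap, and the sums of 10 (exact Poisson 95% interval 4.80 to 18.4) and 2 (0.242 to 7.22) gave an exact permutation p of 0.1, the smallest possible. With no filter edgeR gave a log2 fold change of -2.13 (adjusted p = 0.425). Since 7.51% of the genes with a count that did not pass the filter also had no overlap, no change of LIN28A was shown at this depth. LIN28B, on chromosome 6 at 104957048 to 105083332 on the plus strand, was counted 4, 6 and 8 times against 9, 5 and 5 times. Its libraries overlapped (exact permutation p = 0.8), with sums of 18 (10.7 to 28.4) and 19 (11.4 to 29.7).

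Of 14 genes that act with LIN28 and let-7, 11 were tested and 0 were called by edgeR, DESeq2 or limma-voom, against 3.73% of all tested genes by edgeR, with 2 at an unadjusted p under 0.05 (edgeR, against 17.3% of all tested genes) and a median log2 fold change of 0.06. With the block 3 were called, against 22.5% of all tested genes (HMGA1, DROSHA and DICER1, the nuclease that cuts microRNA precursors, at 0.18 with an adjusted p of 0.751 by edgeR and 0.00931 with the block). The 2 with the lowest p were HMGA1, a chromatin protein and let-7 target, at 12.2 ± 0.931 against 9.33 ± 1.05 CPM (SD, n = 3), and DROSHA, the nuclear nuclease of microRNA maturation, at 127 ± 5.92 against 148 ± 11.9 CPM. Their log2 fold changes were -0.38 (SE 0.119, adjusted p = 0.130 by edgeR, 0.0105 with the block) and 0.23 (SE 0.0842, adjusted p = 0.202, 0.00162 with the block). The let-7 targets HMGA2, IGF2BP1 and IGF2BP3 had log2 fold changes of -0.01, 0.11 and -0.03, with adjusted p-values of 0.984, 0.690 and 0.872.

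KLF4 and MYC are the reprogramming factors of the set that were expressed well enough to be tested. KLF4, a zinc finger factor on chromosome 9 at 107484852 to 107490482 on the minus strand, was counted 126, 148 and 128 times under the H295R label and 151, 147 and 149 times under the other. The raw counts overlapped and the scaled ones, at 5.43 ± 0.350 and 6.09 ± 0.304 CPM (SD, n = 3), did not. The log2 fold change of 0.16 (SE 0.121) was not called without the block (adjusted p = 0.554 by edgeR) or with it (0.357).

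Of the 17 other Krüppel-like factors listed, 15 were tested, with 4 log2 fold changes above 0 and 11 below and a median of -0.16. KLF13, a repressor and activator of promoters with GC-rich sites, was the 1 call (6.67% of 15, against 3.73% of all genes). It lay at 19.0, 18.3 and 17.5 CPM under the H295R label and at 11.6, 10.7 and 12.7 CPM under the other, and was lower there with a log2 fold change of -0.65 (SE 0.0982, adjusted p = 0.00877 by edgeR). The call was lost without H295R-PM-Ptc+ replicate 2 (adjusted p = 0.0520). With the block 5 were called, against 22.5% of all tested genes (10.4% lower), KLF7, KLF9, KLF10, KLF11 and KLF13, all of them lower under the H295R-PM-Ptc+ label. KLF7 is also among the genes the study listed from these libraries.

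MYC, a basic helix-loop-helix factor that drives growth and ribosome production, lies on chromosome 8 at 127735434 to 127741434 on the plus strand. It was counted 2793, 2652 and 2801 times in the libraries labelled H295R and 2388, 2386 and 2311 times in those labelled H295R-PM-Ptc+. Every library of the first label was above every library of the second, at 112 ± 6.43 against 96.4 ± 3.23 CPM (SD, n = 3). The log2 fold change of -0.21 (SE 0.0755) was not called over all genes (adjusted p = 0.188 by edgeR), and was called with the block (adjusted p = 0.00598). PVT1, the noncoding gene 59.1 kb downstream on the same strand, had a log2 fold change of -0.56 (SE 0.153, adjusted p = 0.0856 by edgeR, 0.0106 with the block), with 122, 130 and 112 counts against 72, 86 and 86 that did not overlap.

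Of 13 partners and regulators of MYC 12 were tested, and 0 were called by edgeR or limma-voom and 1 by DESeq2. Over all genes edgeR called 624 (3.73% of those tested), limma-voom 608 and DESeq2 828. Of the 12, 2 were at an unadjusted p under 0.05 (edgeR, against 17.3%), and their median was -0.04. With the block 3 were called, against 22.5% of all tested genes (MLXIP, MXI1 and FBXW7, a ubiquitin ligase subunit that targets MYC, at 0.16 with an adjusted p of 0.402 by edgeR and 0.0391 with the block). MLXIP, a sensor of glucose in the same network, had a log2 fold change of 0.32 (SE 0.0795, adjusted p = 0.0618 by edgeR, 1.57e-04 with the block). MXI1, which competes with MYC for its partner MAX, was at -0.38 (SE 0.115, adjusted p = 0.114, 0.00120 with the block), and MAX was at -0.06 (adjusted p = 0.776). MYCN, the neural paralogue, was at 0.0135 and 0 CPM. Of 15 genes that MYC is known to activate, all were tested and 0 were called by edgeR or limma-voom and 1 by DESeq2, with 1 at an unadjusted p under 0.05 (edgeR). Over all tested genes the shares were 3.73% called and 17.3% at such a p. There were 5 log2 fold changes above 0, 10 below and a median of -0.04, and with the block 1 was called, against 22.5% of all tested genes. CCND2, a cyclin of the G1 phase, was at 127 ± 13.3 against 94.8 ± 11.4 CPM (SD, n = 3), a log2 fold change of -0.42 (SE 0.112, adjusted p = 0.0809 by edgeR, 5.56e-06 with the block). NOP16, a nucleolar protein, was at -0.13 (SE 0.0690, adjusted p = 0.374 by edgeR).

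**Figure D4:**
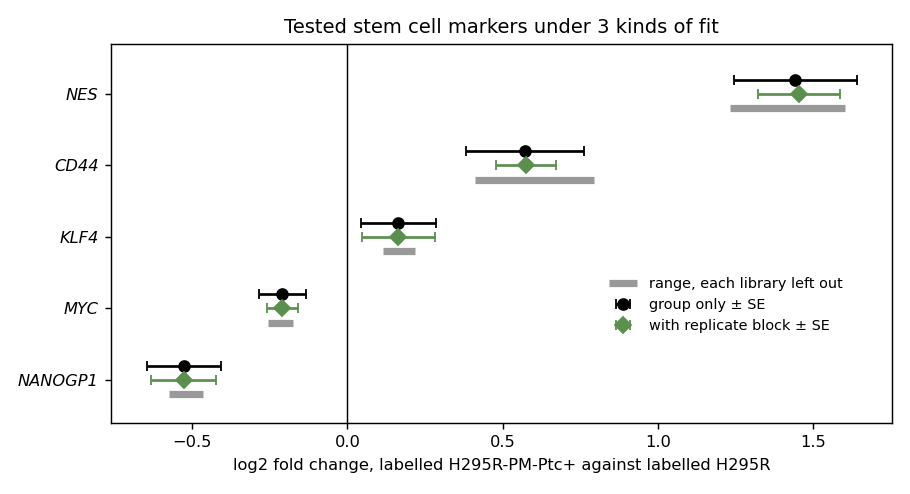
Log2 fold change of the 5 tested genes, H295R-PM-Ptc+ label over H295R label, from edgeR without and with the replicate number as a block (± SE) and as the range when each of 6 libraries is left out. NES lies between 1.23 and 1.60, CD44 between 0.41 and 0.79 and NANOGP1 near -0.53, and no range crosses 0.

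Markers that other studies use for stem-like cells, outside the 10, were listed as a group of 23, of which 17 were tested. There were 5 calls (29.4%, against 3.73% of all genes), all higher under the H295R-PM-Ptc+ label, and the median log2 fold change was 0.19. LGR5, a Wnt pathway receptor of epithelial stem cells, was at 28.9, 35.7 and 30.7 CPM against 55.01, 65.7 and 64.2 CPM, with a log2 fold change of 0.95 (SE 0.105, adjusted p = 0.00155 by edgeR), and was called whichever library was left out. THY1, a surface glycoprotein also known as CD90, was at 0.690 ± 0.0751 against 1.69 ± 0.247 CPM (SD, n = 3; log2 fold change 1.29, SE 0.226, adjusted p = 0.0175). EPCAM, an epithelial adhesion molecule, was at 1.75 ± 0.203 against 3.30 ± 0.631 CPM (0.92, adjusted p = 0.0382), and DCLK1, a kinase of tuft cells, at 12.6 ± 1.68 against 19.5 ± 2.06 CPM (0.64, adjusted p = 0.0302).

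The call for THY1 was lost in 4 of 6 fits that left out a library, with adjusted p-values up to 0.0907, that for DCLK1 in 4 (up to 0.135) and that for EPCAM in 5 (up to 0.136). ALDH1A1, an aldehyde dehydrogenase and the fifth call, was named after its value was seen and is also among the genes the study listed from these libraries. It lay at 110, 140 and 136 CPM against 193, 178 and 174 CPM (log2 fold change 0.49, SE 0.103, adjusted p = 0.0354 by edgeR), and its call was lost in 5 of 6 fits (up to 0.112). With the block 11 of the 17 were called, 8 higher and 3 lower, against 22.5% of all tested genes (12.1% higher and 10.4% lower). Among the 8 higher was KIT, a growth factor receptor with 4, 4 and 1 counts against 10, 17 and 11 (adjusted p = 0.0552 by edgeR, 0.00637 with the block), which passed the filter only through the libraries labelled H295R-PM-Ptc+. The 3 lower were MSI1 and MSI2, RNA-binding proteins of neural progenitors, and ABCG2, a drug efflux pump of side population cells that the study also listed. ABCG2 was at 6.95, 3.23 and 3.07 CPM against 2.23, 1.37 and 1.64 CPM, with a log2 fold change of -1.33 (SE 0.347, adjusted p = 0.0770 by edgeR, 5.39e-05 with the block). It was also called lower by DESeq2 (adjusted p = 0.00452) and by edgeR with no filter on low counts (4.29e-04). DESeq2 called 6 genes of this list, and 828 over all genes.

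Nestin needs other filament proteins to polymerise, and of 9 such genes 7 were tested, with a median log2 fold change of -0.08. VIM, the main partner, was at 1268 ± 131 and 1329 ± 51.9 CPM (SD, n = 3), with a log2 fold change of 0.07 (adjusted p = 0.791 by edgeR). NEFL, the light neurofilament chain, was the 1 call of the 7 (14.3%, against 3.73% of all genes) and was lower under the H295R-PM-Ptc+ label, at 170, 169 and 183 CPM against 143, 131 and 137 CPM, with a log2 fold change of -0.34 (SE 0.0749, adjusted p = 0.0417). This call was lost in 5 of 6 fits without a library (adjusted p up to 0.186). With the block 2 of the 7 were called, NEFL and NEFM, the medium chain, against 22.5% of all tested genes (10.4% lower). NEFM was also lower (-0.35, adjusted p = 0.112 by edgeR, 5.81e-04 with the block).

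**Figure D5:**
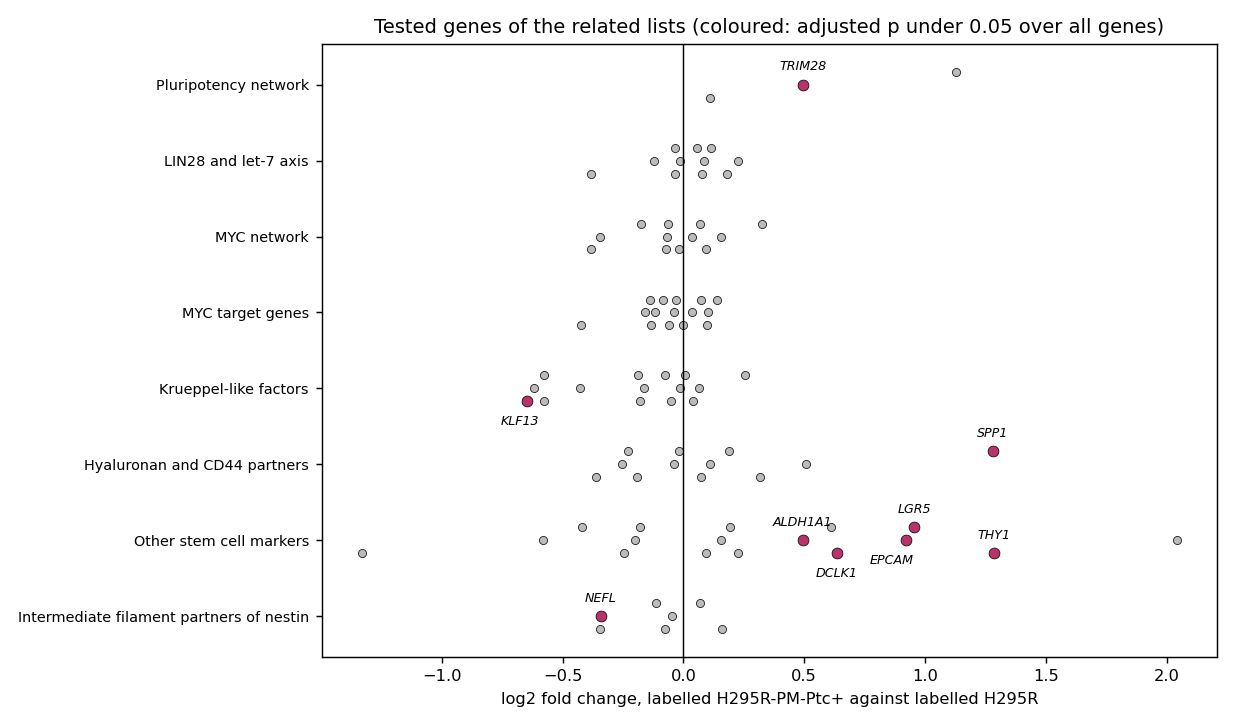
Log2 fold change of every tested gene of the 8 related lists, H295R-PM-Ptc+ label over H295R label, with 1 point per gene, spread vertically for visibility. Coloured and named points are the 9 calls, 7 above 0 and 2 below, and the points of the MYC lists and of the LIN28 list are uncoloured.

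Over the 8 lists, 131 genes beside the 10 were listed and 92 tested, of which 9 were called (9.78%, against 3.73% of all genes) with a median log2 fold change of -0.02. The genes were chosen with earlier results of these libraries known, and some by the study on the same libraries, so the share describes these genes only.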

How the data were processed

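The libraries were stranded and sequenced as paired reads of 75 bases. The labels name a total RNA kit and the methods an mRNA kit. Reads were mapped by the authors (STAR 2.4.0a, hg38), who counted primary alignments, multiply mapped reads included, per gene name and by strand with featureCounts on an Ensembl GRCh38 annotation, with Subread 1.5.0-p3 per the submitters' processing notes (another version in the methods). They deposited raw counts, without normalization, 1 column per library, and no column of unlisted samples was present. The study tested the groups with DESeq2. A row without a gene name held 0 counts and was left out.

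Here the counts were scaled with TMM factors (given as CPM, counts per scaled library size) and entered edgeR's quasi-likelihood test after filterByExpr (edgeR 4.0.16, R 4.3.3, two-sided, group only), with Benjamini-Hochberg adjustment over 16710 genes, which held 99.89% of the counts. A call is an adjusted p under 0.05. The depth was 23264403 to 25813247 counts per library, and 3 counts, the most that a count of 0 allows, are 0.117 to 0.130 CPM. Alternatives were DESeq2 1.42.0, limma-voom (limma 3.58.1), RLE size factors, no filter, at least 10 counts in every library, leaving out each library, the replicate number as a block and, chosen after seeing the data, leaving out replicate 1 of both groups. The fits were tested on simulated data.

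Same-numbered replicates pair the groups: deviations from the group means, on log2(CPM + 0.5), correlated at 0.594, 0.405 and 0.325 for replicates 1, 2 and 3, and at -0.443 to 0.211 for different numbers. The labels also give each same-numbered pair a shared code, whose meaning is not stated. No design formula is stated for the study's test, so the block is an alternative, named beside a result where it changes the call. The fit by group only leaves this pairing out, and it called 624 genes, against 3758 with the block. The 10 genes and the lists were chosen with earlier results of these data known. Named are all 10, PTCH1, from each list the genes called (at most the 4 largest changes) or else the 2 with the lowest p, copies with counts and the nearest tested gene on each side of a called member. The other genes were named after their values were seen. MIRLET7BHG and KLF18 were listed and not matched. Exon lengths and positions came from the deposited table (for POU5F1, annotated on 7 sequences, the 2881 bases on chromosome 6), sequences from an hg38 genome and GENCODE v44, and tables and plots from Python 3.11.15, pandas 2.3.3 and matplotlib 3.10.9.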

Additional observations from a re-analysis of the deposited data

How the results depend on the processing

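Of the 10 genes 2 were called, and the number was 4 with the replicate block, 1 when every library needed at least 10 counts, and 1 to 3 when each library was left out. It was 3 without replicate 1 of both groups (NES, CD44 and NANOGP1). Over all genes 624 calls became 3758 with the replicate block, 1111 with no filter and 2013 without replicate 1 of both groups. They became 828 with DESeq2, 479 when every library needed at least 10 counts and 219 to 810 when each library was left out. Of the genes of the related lists 9 were called, and DESeq2 called 14, while edgeR called 32 with the replicate block, 16 unfiltered, 24 without replicate 1 of both groups and 2 to 12 when each library was left out. The causes of these shifts were not tested. The difference in mean NANOG level, H295R-PM-Ptc+ minus H295R labels, was -0.0322 CPM and lay between -0.153 and 0.0561 CPM when each library was left out. NES, CD44, KLF4, MYC, NANOGP1 and PTCH1 kept the sign of their log2 fold changes under all of these settings. NES, SPP1 and LGR5 kept their call in all 13 alternatives, and KLF4 was called in 0 of 13. NANOG, POU5F1, LIN28A, LIN28B and PROM1 hold 0 to 14 counts per library, and depth limits what can be seen there. All directions depend on the group labels.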
